A study of Homo sapiens with 15 samples.

Results

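The genes described here are 45 genes of G2 and mitosis, the phases in which a cell prepares its division, separates its chromosomes and splits. They were chosen by gene symbol and are 45 of the 20468 genes in each expression table. By their known roles they fall into 7 groups, which are entry into mitosis (7 genes), mitotic kinases with the passenger complex (5), spindle checkpoint and anaphase-promoting complex, APC/C (8), centromere and kinetochore (6), spindle motors and spindle assembly (7), central spindle and cytokinesis (6) and chromosome structure (6).

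The study grew cells of the multiple myeloma (MM) lines MM.1S and RPMI8226 for 48 h with or without HS5, a human bone marrow stromal line, and measured their mRNA by RNA-Seq. MONO is MM cells alone, TSW is MM cells in the upper transwell, and CO is MM cells in the lower chamber together with HS5 cells. By the methods of the study, MM cells were placed in both compartments of a coculture well. TSW cells thus lay over HS5 and MM cells and shared medium with CO cells, and such a well held more MM cells than MONO. Trypsin is described for the cocultures only. Stroma, MM cell number and handling therefore cannot be told apart in comparisons with MONO. MM.1S has 3 replicates and RPMI8226 2 replicates of each condition, which makes 15 libraries. RNA came from sorted cells negative for CD90 and positive for CD38. Both lines are established and grow without stroma, so MONO is their usual culture state. Because no source says that replicates came from separate cultures, p-values measure only the spread between these libraries, which may be technical.

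Transcripts of G2 and mitosis genes are low in cells that have left the cycle or are early in G1 and accumulate from S phase to mitosis. Their promoters often hold a cell cycle genes homology region (CHR) and CCAAT boxes, bound by the repressor complex DREAM and by the CCAAT factor NF-Y, and in S and G2 the activators MYBL2 and FOXM1 act there. The proteins are then removed through APC/C, and high levels of this program are a known mark of proliferating myeloma.

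Promoters of 6 members whose levels are described in detail are shown, because the members share letters that their choice did not use. Each run holds the 150 bases before the RefSeq start site in GRCh38.p14, from -150 to -1, 5′ to 3′ on the + strand, which is the coding strand of all 6 genes. Capitals mark the CHR letters TTTGAA or TTCGAA and the box CCAAT, searched on both strands, so that ATTGG is CCAAT on the other strand. They come from chr5:69167000-69167149 (CCNB1), chr16:23678739-23678888 (PLK1), chr1:43358831-43358980 (CDC20), chr2:26785906-26786055 (CENPA), chr5:163460482-163460631 (HMMR) and chr3:172750576-172750725 (ECT2, 1 of its 2 entries).
CCNB1: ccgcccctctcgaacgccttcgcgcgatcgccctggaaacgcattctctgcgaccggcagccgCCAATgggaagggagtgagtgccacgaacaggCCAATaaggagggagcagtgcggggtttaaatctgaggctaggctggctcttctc
PLK1: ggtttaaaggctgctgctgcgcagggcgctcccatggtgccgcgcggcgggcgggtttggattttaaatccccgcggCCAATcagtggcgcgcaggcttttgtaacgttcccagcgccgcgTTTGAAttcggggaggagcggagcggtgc
CDC20: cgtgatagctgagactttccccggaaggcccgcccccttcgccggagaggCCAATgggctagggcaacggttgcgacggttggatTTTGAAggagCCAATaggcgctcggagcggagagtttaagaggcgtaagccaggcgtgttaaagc
CENPA: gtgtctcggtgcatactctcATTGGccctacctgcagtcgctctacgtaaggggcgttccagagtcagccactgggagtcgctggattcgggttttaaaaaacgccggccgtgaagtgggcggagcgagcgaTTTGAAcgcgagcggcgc
HMMR: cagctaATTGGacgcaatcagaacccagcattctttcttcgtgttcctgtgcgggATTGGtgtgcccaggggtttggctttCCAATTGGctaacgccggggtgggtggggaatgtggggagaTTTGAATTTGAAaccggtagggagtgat
ECT2: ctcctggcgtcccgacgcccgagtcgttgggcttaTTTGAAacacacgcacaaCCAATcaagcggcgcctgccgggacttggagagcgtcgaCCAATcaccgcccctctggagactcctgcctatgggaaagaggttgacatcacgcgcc

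In the runs shown, CDC20 held CHR letters from -65 and CCAAT from -100 and -55, and PLK1 held CHR letters from -29 and CCAAT from -73. In HMMR the CHR letters occurred from -28 and from -22, and the boxes on the 2 strands at -69 and -66 overlapped. CENPA held CHR letters from -18 with 1 box from -130, and ECT2 held CHR letters from -115 with boxes from -97 and -58. CCNB1 held boxes from -87 and -55, and these CHR letters are not in its window. RefSeq promoter entries, 250 bases before to 50 after a start, were found for 37 of the 45 genes (46 entries), and not for BIRC5, TTK, AURKA, RACGAP1, UBE2C, BUB3, TPX2 and FOXM1. CHR letters were in an entry of 28 of the 37 members (75.7%), against 15.4% of 8937 tested genes and 19.5% of all 27305 genes with an entry, and in 67.4% of member entries against 16.4% of all 35116 entries. CCAAT was also in 28 of 37 (75.7%), against 44.1% of tested genes and 39.7% of all genes with an entry, and both occurred in 21 (56.8%), against 6.57% of tested genes. A match of letters is a description and not a binding site.

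Expression is given as RPKM (reads per kilobase of exons, scaled to the library's reads on genes), and fold changes are differences of log2(RPKM + 1), a scale that understates changes of low genes. Reads on genes ranged from 9008909 to 19050583 per library, so that 1 read on a transcript of 2 kb is 0.0555 to 0.0262 RPKM. A gene was tested when its mean RPKM over the libraries of its line was at least 1, and this kept 10153 MM.1S genes and 10319 RPMI8226 genes. All 45 members passed in MM.1S and 44 in RPMI8226. UBE2C, the E2 enzyme of APC/C, was the exception and was singled out after its values were seen, with 52 to 82.6 RPKM in MM.1S but 0.133 to 1.35 in RPMI8226 (3 to 32 reads a library). The test was limma with a mean-variance trend over the 3 conditions of a line, with Benjamini-Hochberg adjusted p over all tested genes, and a gene was called when its adjusted p was under 0.05 and its fold size above 1.5. Each library was scaled to its own reads on genes, and differences in level between the lines were not tested, so they should be read with caution.

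Some libraries stood apart. MM.1S MONO 1 had the fewest reads (9008909) and an RPKM sum of 489898, against 427631 to 439368 in the other libraries of the line. Its deviations from the gene means correlated with gene length (Spearman -0.51 over 10032 genes, and -0.50 over the members) and with GC content (0.40). Such correlations were not particular to it, since CO 1 of MM.1S had 0.41 with length, CO 1, CO 3 and TSW 3 had -0.49, -0.45 and -0.39 with GC content, RPMI8226 TSW 2 had 0.42 with GC content, and the members of MM.1S MONO 2 had 0.47 with length. MM.1S MONO 2 and both RPMI8226 TSW libraries had RPKM of 84.2, 94.8 and 93.6 for the pseudogene RPS14P3 and of 1.44, 2.22 and 1.53 for the mitochondrial tRNA gene trnN, against 2.2 to 6.44 and 82.3 to 587 in the other 12 libraries. In RPMI8226 this pattern covers the whole TSW condition, so the pattern and the condition cannot be told apart there, and both genes were singled out after their values were seen. Members were lowest in the same MM.1S libraries, since their median log2(RPKM + 1) was 4.82 in MONO 1 and 4.97 in MONO 2, but 5.21 in MONO 3 and 5.21 to 5.29 in the 6 TSW and CO libraries. Counts against MONO in MM.1S are therefore given with and without MONO 1 and 2, for the members and for the other lists, a choice made after seeing the data. Because these are the MONO libraries with the lowest member levels, leaving them out lowers any increase of the members by construction. It also leaves 1 MONO library, so it is no independent check of that increase. A loess correction for GC content and length is given as an alternative, while the part of depth was not tested.

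The labelled cell types were compared with markers. Of 9 plasma cell markers 0 were at 0 in any library, and JCHAIN was the most abundant in all 15, although SLAMF7 lay between 0.0184 and 0.104 RPKM in RPMI8226. Their summed RPKM was 5869, 4935 and 5184 in MM.1S MONO, 3976, 3841 and 3844 in TSW and 3649, 3813 and 3497 in CO. In RPMI8226 the sums were 2426 and 2337 in MONO, 4316 and 4150 in TSW and 4410 and 4341 in CO. Of 30 stromal markers, 14 to 18 were at 0 in the MONO and TSW libraries of both lines and 1 to 3 in the CO libraries. The stromal sum was 25.2, 27.7 and 28 in MM.1S MONO and 17.5, 18.1 and 17.8 in TSW, with CAV1 as the most abundant gene, and 198, 208 and 180 in CO, with MMP1 at 44.5, 46.9 and 41. In RPMI8226 it was 4023 and 4344 in MONO, 1705 and 1989 in TSW and 2164 and 2388 in CO, and FN1 alone made up 3990 and 4310, 1678 and 1962, and 2007 and 2169. COL1A2, COL3A1 and MMP1 were at 0 in every MONO and TSW library of both lines, while COL1A2 reached 10.8, 13.4 and 10.2 in MM.1S CO and 4.05 and 5.85 in RPMI8226 CO. The stromal sum was thus higher in CO than in MONO in MM.1S, and lower in RPMI8226, where FN1 made up most of it. Fewer stromal markers were at 0 in CO than in MONO or TSW of both lines. The paper reports a low level of HS5 cells among the MM cells sorted from the lower chamber, and it excluded signature genes of stromal cells. No such exclusion was made here, and the part of stromal RNA in the CO results was not tested. Fewer cells in G2 or mitosis and less of these RNAs per cell cannot be told apart in such samples.

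Among the members, the mean level in MONO ran from 5.06 RPKM for CENPE to 205 for CKS2 in MM.1S, and from 4.65 for CENPE to 148 for CCNB1 among the 44 tested in RPMI8226. Summed over the 45 genes, RPKM was 1756, 1757 and 2209 in MM.1S MONO, 2297, 2233 and 2076 in TSW and 2331, 2336 and 2243 in CO. RPMI8226 went the other way, with 2183 and 2087 in MONO, 1597 and 1572 in TSW and 1554 and 1392 in CO. In MM.1S the sum of MONO 3 lay inside the range of TSW and below CO, whereas in RPMI8226 both MONO libraries lay above the other 4.

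**Figure D1:**
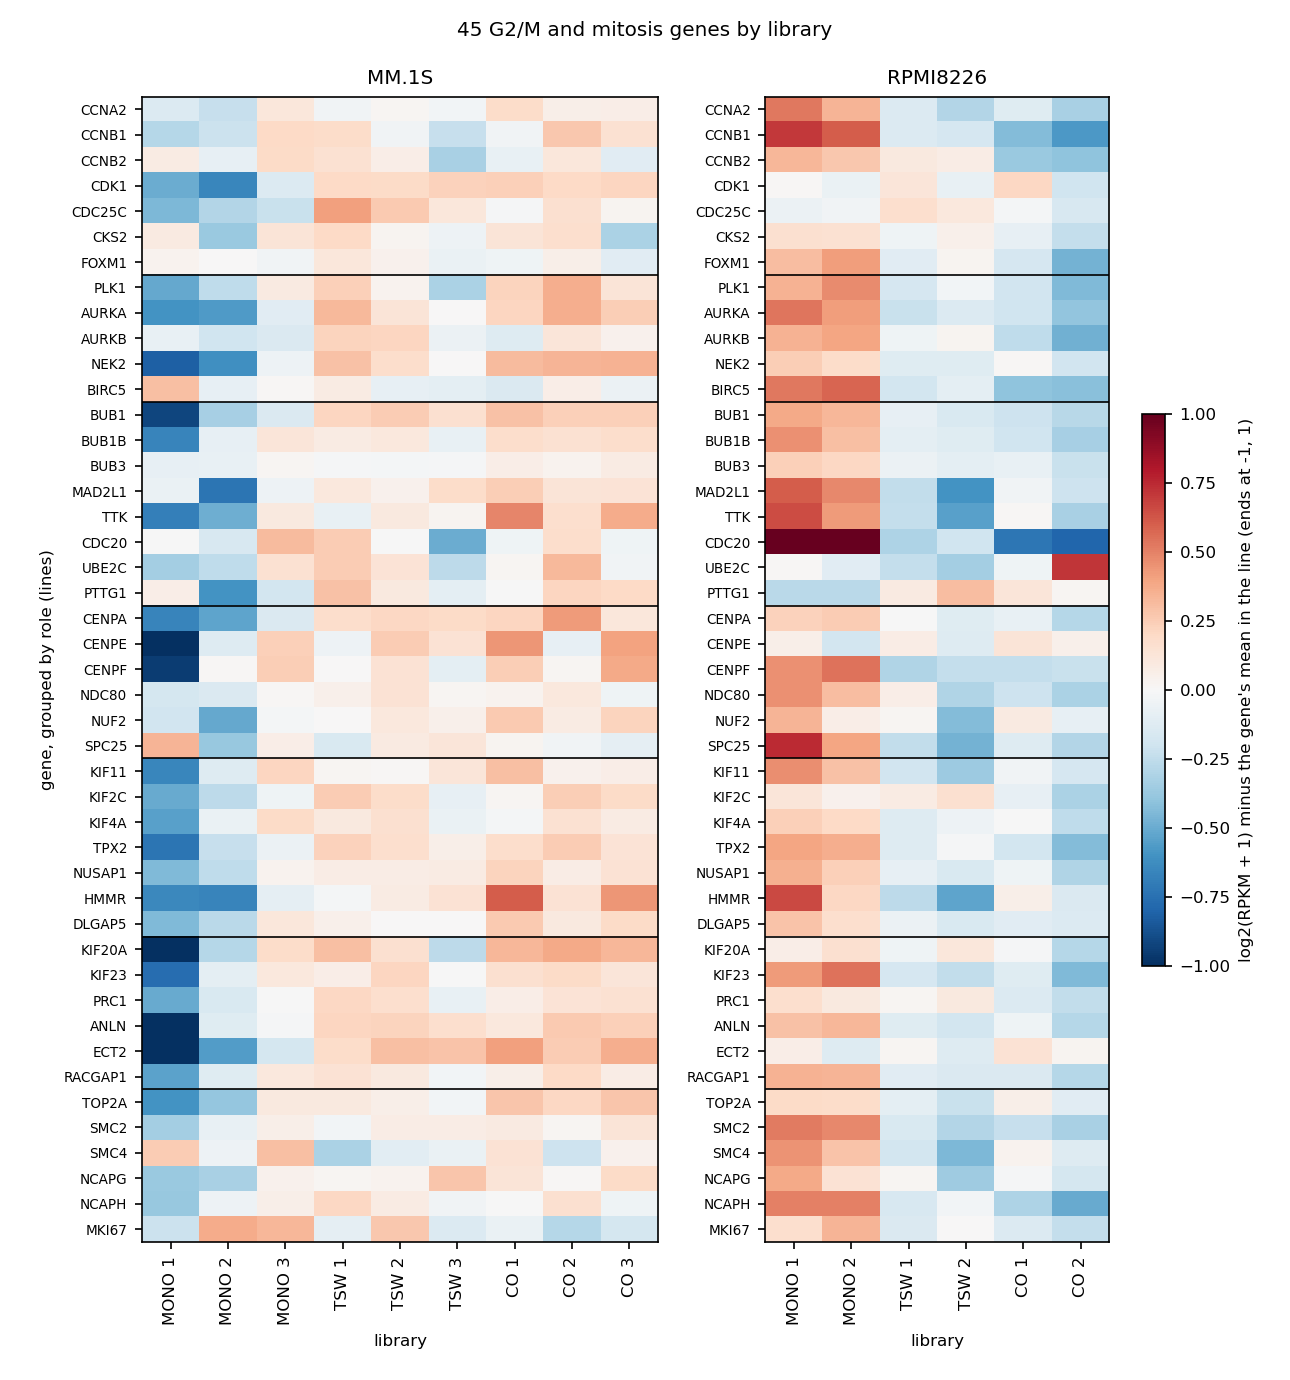
Each cell is a gene's log2(RPKM + 1) in a library minus its mean over the line's libraries, with genes in rows by role and colours ending at -1 and 1. The median deviation of the members was -0.45, -0.23 and 0.06 in MM.1S MONO 1 to 3 and 0.35 and 0.30 in RPMI8226 MONO, against -0.01 to 0.15 and -0.28 to -0.10 in the TSW and CO libraries of each line.

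The comparison of TSW with MONO addresses what changes in MM cells that share medium with stromal cells, and with the MM cells below, but do not touch the stromal cells. In MM.1S, 5 of the 45 genes (11.1%) were called higher in TSW, against 6.48% of all tested genes, and 0 were called lower, against 4.16%. The 5 were CDK1, NEK2, BUB1, CENPA and ECT2. ECT2, the exchange factor that activates RhoA at the division plane, went from 9.32 ± 3.08 RPKM in MONO to 17.1 ± 0.852 in TSW (mean ± SD, n = 3). At an adjusted p under 0.05 without the fold threshold, 10 members were higher (22.2%, against 14.4% of tested genes), the added genes being CDC25C, AURKA, KIF2C, TPX2 and HMMR, and 0 were lower, against 12.9%. At an unadjusted p under 0.05, 18 were higher and 1 lower (21.2% and 19.2% of tested genes), and voom on recovered reads called 7 higher and 0 lower (8.43% and 5.67%). The median log2 fold change of the members was 0.26, against 0.01 over all tested genes, with 40 of 45 above 0. In 15 members all TSW libraries lay above all MONO libraries and in 1 below, which held for 23.4% and 20.6% of tested genes. These counts rested on few MONO libraries, since 2 members were called higher without MONO 1 and 13 without MONO 3. Shares of all tested genes without a single library are not given here, so a shift particular to the members cannot be read from such counts. Without MONO 1 and 2 together, 0 were called in either direction (5.65% of tested genes higher and 3.71% lower) and the median was -0.02, with the lone MONO library assumed to vary like the other groups. NEK2 was not called without MONO 1, TSW 1 or TSW 2 (log2 fold change down to 0.49). A fit of TSW and MONO alone did not call NEK2 either, with its 0.65 unchanged by construction. BUB1 and CENPA were not called without MONO 1 (0.45 and 0.53), and CENPA not with quantile normalization (0.58). CDK1 was not called without MONO 2 (0.52) or with the loess correction (0.53). Under that correction 6 members were called higher and 0 lower, against 5.72% and 4.19% of tested genes, with AURKA and CDC25C added.

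CO adds contact with HS5 cells in the same chamber. In MM.1S, 8 members (17.8%) were called higher in CO than in MONO, against 7.13% of tested genes, and 0 were called lower, against 4.65%. AURKA, TTK and HMMR joined the 5 genes called in TSW. HMMR, a spindle assembly factor that binds hyaluronan, went from 16.1 ± 4.08 RPKM in MONO to 29.9 ± 4.87 in CO (mean ± SD, n = 3). Without the fold threshold, limma gave 15 higher (33.3%, against 16.2% of tested genes) and 0 lower (15%), and the added genes were CDC25C, NUF2, KIF2C, TPX2, NUSAP1, DLGAP5 and TOP2A. At an unadjusted p under 0.05, 24 were higher and 0 lower (22.8% and 21.2% of tested genes), and voom called 9 and 0 (9.58% and 6.14%). Members had a median log2 fold change of 0.37, against 0.01 over all tested genes, and 38 of 45 were above 0. All CO libraries lay above all MONO libraries in 22 members and below in 0, against 23.4% and 20.5% of tested genes. The MONO libraries are those of the comparison above, so the calls of both comparisons share their control samples. Without MONO 3 the count was 15, without MONO 1 it was 6, and without MONO 1 and 2 it was 0 (5.36% of tested genes, with 3.37% lower), with a median of 0.06. BUB1 was not called without MONO 1 (0.50), and CDK1 not without MONO 2 (0.53) or with the loess correction (0.47). TTK was not called without MONO 1 or CO 1 (down to 0.54) or with that correction. Under the loess correction 8 members were called higher and 0 lower, against 5.62% and 3.73% of tested genes, with PLK1 and KIF20A added.

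**Figure D2:**
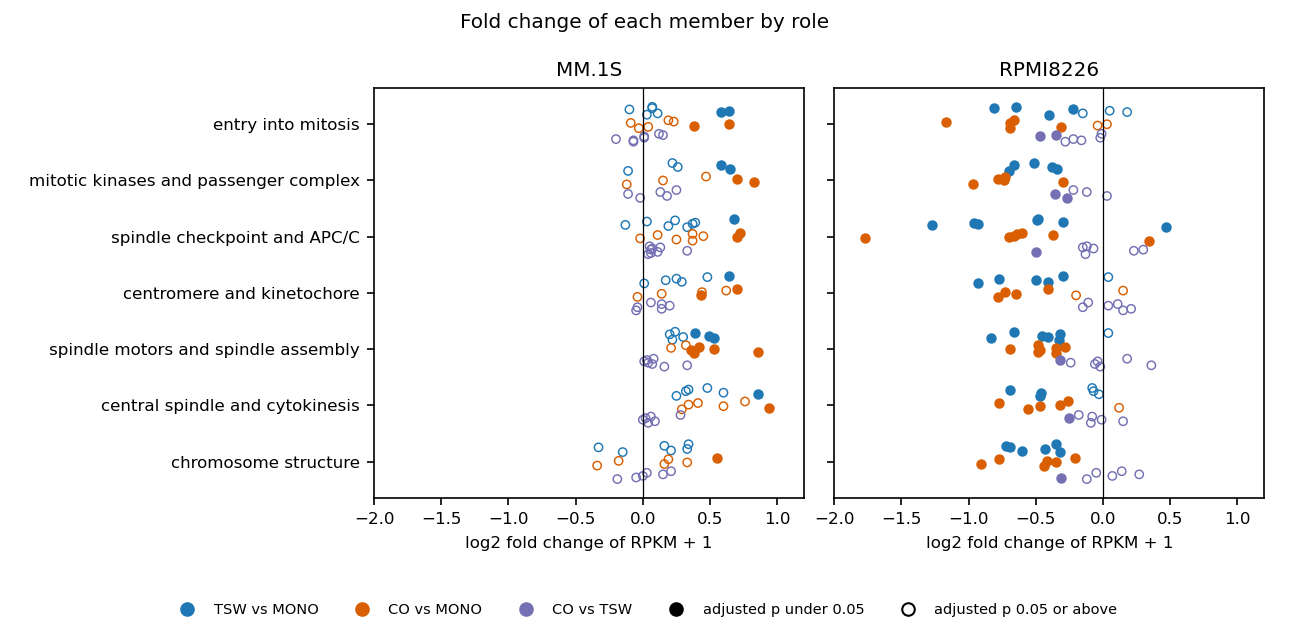
Points are the log2 fold changes of RPKM + 1 of each member by role, filled where the adjusted p was under 0.05, with a colour for each comparison. In MM.1S they ran from -0.34 to 0.94 and in RPMI8226 from -1.77 to 0.47.

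Among the genes of entry into mitosis, CDK1, the kinase that starts mitosis, stood at 36.8, 32.9 and 47.4 RPKM in MM.1S MONO, at 60.2, 59.8 and 61.5 in TSW and at 61.7, 60.1 and 60.8 in CO. All 3 MONO libraries lay below all 6 others. Its log2 fold change was 0.64 ± 0.12 (SE, n = 3) in TSW and in CO, with adjusted p = 0.00287 and 0.00256. CCNB1, cyclin B1 and partner of CDK1, had 54, 57 and 76 RPKM in MONO, 75.2, 64.7 and 56.4 in TSW and 64.7, 79.9 and 73.5 in CO. The 3 conditions overlapped, and the differences of 0.07 ± 0.15 and 0.23 ± 0.15 did not pass (adjusted p = 0.732 and 0.252). FOXM1, a transcription factor for genes of this program, was at 29.3, 28.7 and 27.9 in MONO, 31.1, 29.6 and 27.3 in TSW and 27.8, 29.8 and 26.4 in CO, so its conditions overlapped as well (0.03 ± 0.09 and -0.03 ± 0.09, adjusted p = 0.796 and 0.793). In this role 1 of 7 genes was called higher in each comparison, against 6.48% and 7.13% of tested genes, and the range was -0.10 to 0.64.

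Of the mitotic kinases, AURKA, which matures centrosomes, had 19, 19.4 and 27 RPKM in MONO, 36.8, 32 and 29.3 in TSW and 34.1, 38 and 34.8 in CO. No MONO library reached the lowest TSW or CO library. Its log2 fold change was 0.58 ± 0.14 in TSW (adjusted p = 0.0107, under the fold threshold) and 0.70 ± 0.14 in CO (SE, n = 3, adjusted p = 0.0036). PLK1, a kinase of mitotic entry and spindle formation, had 44.3, 53.1 and 67.6 in MONO, 75.2, 65.3 and 50.9 in TSW and 74.4, 82.1 and 69.8 in CO. All CO libraries lay above MONO, TSW overlapped both, and neither 0.22 ± 0.17 nor 0.47 ± 0.17 passed (adjusted p = 0.357 and 0.0538), although PLK1 was called in CO without MONO 3 (0.63). BIRC5, survivin of the passenger complex, was at 76.5, 58.4 and 62.7 in MONO, 65.8, 58.7 and 58 in TSW and 56.1, 64.9 and 59.5 in CO, with overlap throughout (-0.11 ± 0.11 and -0.12 ± 0.11, adjusted p = 0.505 and 0.425). NEK2, a centrosome kinase named because it was called, had means of 12.9, 20.4 and 23.1 RPKM in MONO, TSW and CO.

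In the spindle checkpoint, BUB1, a kinase at unattached kinetochores, had 50.1, 75.6 and 86.1 RPKM in MONO, 111, 114 and 107 in TSW and 117, 113 and 113 in CO. MONO lay below TSW and CO, and MONO 1 was lowest. The log2 fold change was 0.68 ± 0.16 in TSW and 0.72 ± 0.16 in CO (SE, n = 3, adjusted p = 0.0109 and 0.00716), which fell under the fold threshold without MONO 1. CDC20, the activator of APC/C at anaphase, was at 51.1, 45.7 and 64 in MONO, 61.3, 51 and 35.9 in TSW and 49.5, 58 and 49.5 in CO. Its conditions overlapped, with differences of -0.13 ± 0.18 and -0.02 ± 0.18 (adjusted p = 0.606 and 0.93). TTK, the checkpoint kinase MPS1, had means of 14.1, 18.1 and 23 RPKM and was called in CO and not in TSW, while CO against TSW gave 0.33 ± 0.17 (adjusted p = 0.998). Other members of this role ran from 0.03 to 0.39 in TSW and from 0.11 to 0.45 in CO, without a call.

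At the centromere, CENPA, the histone H3 variant that marks it, had 8.3, 9.21 and 12.3 RPKM in MONO, 15.6, 16 and 15.8 in TSW and 16.1, 18.8 and 14.9 in CO. All MONO libraries lay below the 6 others, and the log2 fold change was 0.64 ± 0.13 in TSW and 0.70 ± 0.13 in CO (SE, n = 3, adjusted p = 0.0058 and 0.00336). CENPF, a large kinetochore protein, had 12.3, 24.9 and 29.4 in MONO, 24.7, 27.3 and 23 in TSW and 29.4, 25 and 32.3 in CO. MONO 1 was low and the rest overlapped, so that 0.25 ± 0.24 and 0.44 ± 0.24 did not pass (adjusted p = 0.477 and 0.187), but CENPF was called in CO without MONO 3 (0.68). Among spindle genes, HMMR had 13.9, 13.7 and 20.9 in MONO, 22, 23.6 and 24.7 in TSW and 34.4, 24.8 and 30.6 in CO. Its 3 conditions did not overlap, with MONO lowest and CO highest. The log2 fold change from MONO was 0.53 ± 0.16 in TSW (adjusted p = 0.031, under the fold threshold, and called without MONO 3 at 0.72) and 0.86 ± 0.16 in CO (SE, n = 3, adjusted p = 0.00279). TPX2, which targets AURKA to the spindle, had 46.1, 65.6 and 74.2 in MONO, 90.9, 86.7 and 80.4 in TSW and 87.6, 92.2 and 85 in CO. MONO lay below both, and 0.49 ± 0.15 and 0.53 ± 0.15 passed the adjusted p (0.031 and 0.0209) but not the fold threshold, which they passed without MONO 3 (0.63 and 0.67). All 7 spindle genes had fold changes above 0 in both comparisons, from 0.20 to 0.86.

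In cytokinesis, ECT2 had 6.25, 9.28 and 12.4 RPKM in MONO, 16.2, 17.7 and 17.5 in TSW and 19.2, 17.1 and 18.5 in CO. MONO lay below the 6 others, and these log2 fold changes, 0.86 ± 0.18 and 0.94 ± 0.18 (SE, n = 3, adjusted p = 0.00529 and 0.00297), were the largest of the members in both comparisons. RACGAP1, the centralspindlin subunit that recruits ECT2, had 26.7, 35.9 and 42.2 in MONO, 43.2, 41.8 and 38.3 in TSW and 40.7, 44.9 and 41.2 in CO, with overlap and no pass (0.25 ± 0.14 and 0.29 ± 0.14, adjusted p = 0.205 and 0.134). For chromosome structure, TOP2A, topoisomerase II alpha, had 68.1, 79.1 and 111 in MONO, 111, 108 and 102 in TSW and 126, 120 and 126 in CO. CO lay above MONO, while TSW overlapped MONO 3. Its differences were 0.34 ± 0.15 (adjusted p = 0.11) and 0.55 ± 0.15 (adjusted p = 0.018, under the fold threshold, and called without MONO 3 at 0.75). MKI67, the Ki-67 antigen on mitotic chromosomes, had 34.7, 52.8 and 51.3 in MONO, 38, 49.2 and 36.7 in TSW and 38.7, 33.1 and 35.7 in CO, and its conditions overlapped (-0.15 ± 0.16 and -0.34 ± 0.16, adjusted p = 0.524 and 0.134). NCAPH, a condensin subunit, had 12.6, 16.1 and 17.5 in MONO, 19.5, 17.8 and 16.3 in TSW and 16.7, 18.8 and 16.2 in CO, again with overlap (0.21 ± 0.12 and 0.16 ± 0.12, adjusted p = 0.223 and 0.331). SMC4, its condensin partner, had the lowest fold change in TSW (-0.33 ± 0.13, adjusted p = 0.0795) and was singled out after its values were seen.

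CO and TSW were also compared with each other, which addresses what the shared chamber adds to shared medium. Between CO and TSW of MM.1S, limma called 0 of 45 members higher and 0 lower, against 0.374% and 0.0394% of tested genes, and 0 in either direction without the fold threshold (0.384% and 0.0492%). Voom also called 0 and 0 (0.394% and 0.0492% of tested genes), and at an unadjusted p under 0.05 there were 0 and 0 (1.84% and 2.59%). The median difference was 0.06, against 0.00 over all tested genes, and the range was -0.20 to 0.33. In 9 members all CO libraries lay above all TSW libraries and in 0 below, against 7.61% and 8.64% of tested genes. HMMR had the largest difference, 0.33 ± 0.16 (SE, n = 3, adjusted p = 0.998), together with TTK.

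In RPMI8226 most members were lower in TSW. Of the 44 tested, 15 (34.1%) were called lower in TSW than in MONO, against 17.9% of tested genes, and 0 were called higher, against 14.5%. CDC20 fell from 106 ± 0.397 RPKM in MONO to 43.3 ± 2.23 in TSW and CCNB1 from 148 ± 7.81 to 83.8 ± 1.31 (mean ± SD, n = 2). The others called lower were CCNA2, AURKA, BIRC5, MAD2L1, TTK, CENPF, SPC25, KIF11, HMMR, KIF23, SMC2, SMC4 and NCAPH. Without the fold threshold, 35 were lower (79.5%, against 38.0% of tested genes) and 1, PTTG1, was higher (29% of tested genes). At an unadjusted p under 0.05, 35 were lower and 1 higher (39.7% and 30.4% of tested genes), and voom called 15 lower and 0 higher (21.7% and 17.2%). Members had a median change of -0.44, compared with -0.08 over all tested genes, and 39 of 44 were below 0. In 37 of the 45 genes, with UBE2C among them, both TSW libraries lay below both MONO libraries and in 2 above, against 46.9% and 36% of tested genes. KIF11 and CCNA2 were not called without MONO 1 or without TSW 2 (up to -0.57 and -0.55), SMC4 not without TSW 2 (-0.56) and NCAPH not without TSW 1 (-0.54), with the lone library assumed to vary like the other groups. Members called lower were 11 with median-of-ratios scaling (14.9% of tested genes, with 16.6% higher), 14 after quantile normalization (16.2% and 15.3%) and 11 under the loess correction (14.4% and 16.8%), which also called PTTG1 higher. Under median-of-ratios scaling or the loess correction AURKA (-0.58 and -0.51), CCNA2 and NCAPH were not called either, KIF11 not under the former and BIRC5 not under the latter (-0.58).

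In RPMI8226 CO, 20 of 44 members (45.5%) were called lower, against 22.9% of tested genes, and 0 were called higher, against 16.4%. CDC20 fell to 30.3 ± 1.09 RPKM and CCNB1 to 65.4 ± 4.57 (mean ± SD, n = 2). The other 18 were CCNA2, CCNB2, FOXM1, PLK1, AURKA, AURKB, BIRC5, BUB1, BUB1B, MAD2L1, TTK, CENPF, NDC80, SPC25, TPX2, KIF23, SMC2 and NCAPH. Without the fold threshold 38 were lower (86.4%, against 41.7%) and 1, again PTTG1, was higher (30.3% of tested genes). At an unadjusted p under 0.05 the counts were also 38 and 1 (42.7% and 31% of tested genes), and voom called 20 lower and 0 higher (26.4% and 19%). The members' median was -0.48, compared with -0.09 over all tested genes, with 40 of 44 below 0. Both CO libraries lay below both MONO libraries in 38 of the 45 genes and above in 1, against 49.5% and 37.5% of tested genes. Both comparisons use the same MONO libraries. With median-of-ratios scaling 12 members were called lower (18.7% of tested genes, with 19.3% higher), with quantile normalization 13 (20.1% and 18.4%), and without CO 2 also 13. The loess correction for GC content and length called 12 lower (17.5% of tested genes, with 18.6% higher), which were 9 of the 20 with HMMR, SMC4 and MKI67, and 1 higher, PTTG1. TSW gave 11, 14 and 11 under these 3 scalings, so the gap between 15 and 20 calls was not kept. No longer called with the loess correction were CCNA2, CCNB2, FOXM1, PLK1, AURKA, AURKB, BUB1, BUB1B, MAD2L1, NDC80 and TPX2. Without CO 2, CCNA2, FOXM1, BUB1, BUB1B, MAD2L1, TTK and TPX2 were not called, and without MONO 1 CCNA2, BUB1, BUB1B and NDC80 were not, with log2 fold changes from -0.58 to -0.53.

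**Figure D3:**
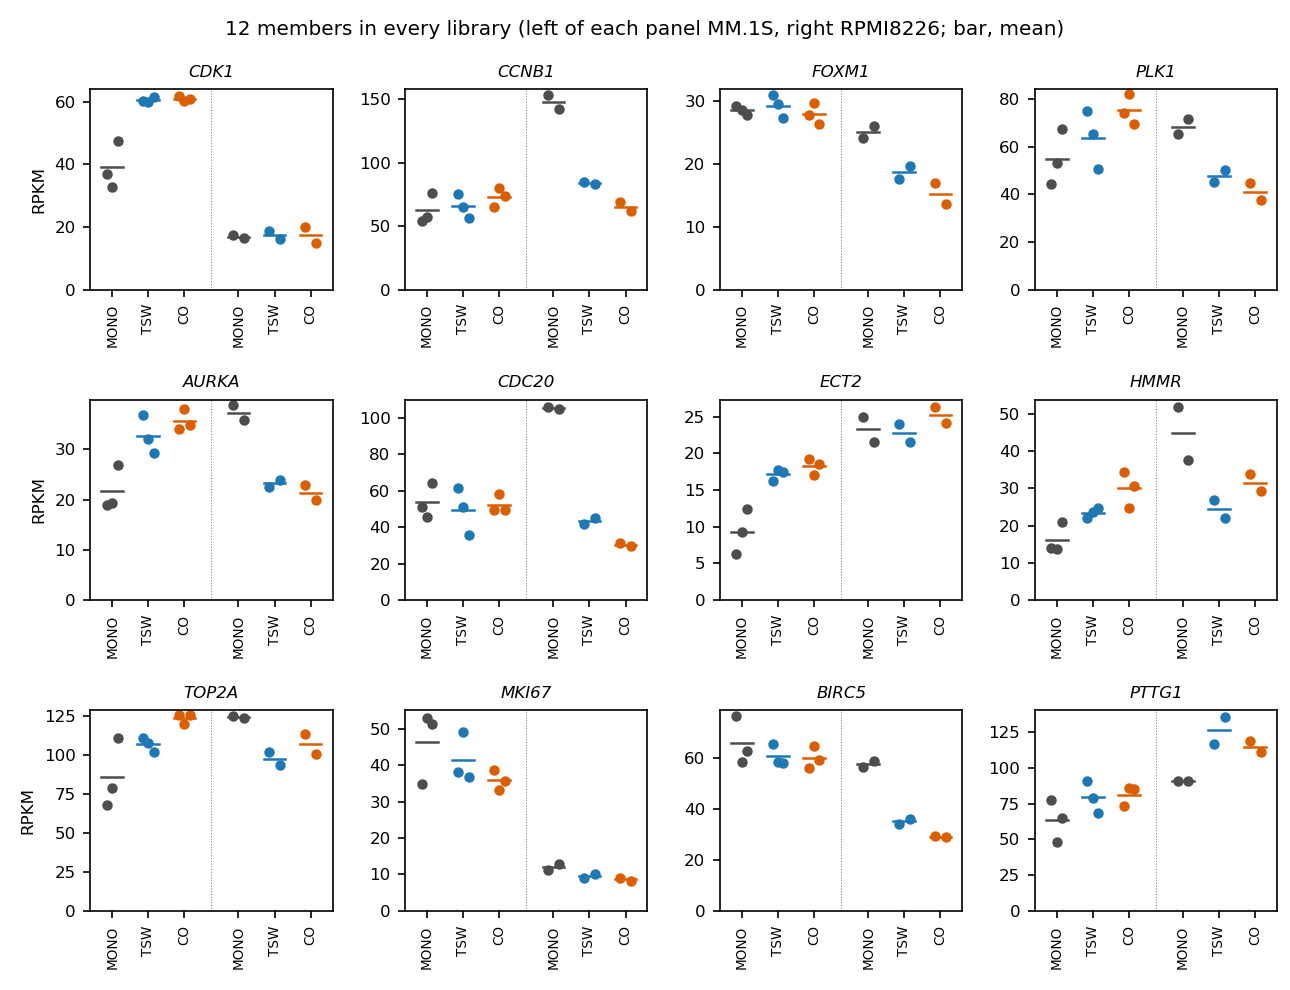
RPKM of 12 members in every library, with MM.1S on the left and RPMI8226 on the right of each panel, a point for each library and a bar for the mean of each condition. CDC20 lies at 106 and 105 in RPMI8226 MONO and at 29.5 to 44.9 in TSW and CO, while CDK1 lies at 32.9 to 47.4 in MM.1S MONO and at 59.8 to 61.7 in TSW and CO.

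In the group of entry into mitosis, CCNB1 had 153 and 142 RPKM in RPMI8226 MONO, 84.7 and 82.9 in TSW and 68.6 and 62.1 in CO. The conditions did not overlap, MONO being highest and CO lowest. From MONO the log2 fold change was -0.81 ± 0.07 in TSW and -1.17 ± 0.07 in CO (SE, n = 2, adjusted p = 4.92e-06 and 2.55e-07). FOXM1 had 24.1 and 26.1 in MONO, 17.7 and 19.7 in TSW and 17 and 13.6 in CO. Its conditions were ordered in the same way, with -0.40 ± 0.11 (adjusted p = 0.0062, under the fold threshold) and -0.69 ± 0.11 (adjusted p = 0.000176, but not called with median-of-ratios scaling, quantile normalization or the loess correction, at -0.58, -0.58 and -0.49, or without CO 2). CDK1 stood at 17.4 and 16.4 in MONO, 18.8 and 16.3 in TSW and 20.1 and 14.9 in CO, with overlap and differences of 0.05 ± 0.13 and 0.03 ± 0.13 (adjusted p = 0.751 and 0.825). In this role 2 of 7 genes were called lower in TSW and 4 in CO, against 17.9% and 22.9% of tested genes.

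All 5 mitotic kinases and passenger genes were lower in both comparisons at an adjusted p under 0.05, from -0.97 to -0.30. This held for 38.0% and 41.7% of tested genes. Of the 5, 2 were called in TSW and 4 in CO, against 17.9% and 22.9% of tested genes. BIRC5 had 56.7 and 58.8 RPKM in MONO, 34.2 and 36.3 in TSW and 29.3 and 28.9 in CO, and the conditions did not overlap. Its log2 fold change was -0.70 ± 0.07 in TSW and -0.97 ± 0.07 in CO (SE, n = 2, adjusted p = 1e-05 and 6.68e-07). AURKA had 38.9 and 35.8 in MONO, 22.6 and 24 in TSW and 22.9 and 19.9 in CO. MONO lay above both others, which overlapped, with -0.66 ± 0.09 and -0.78 ± 0.09 (adjusted p = 7.46e-05 and 1.65e-05). Neither AURKA call was kept with the loess correction (-0.51 and -0.55), and that of TSW not with median-of-ratios scaling (-0.58). PLK1 had 65.5 and 71.6 in MONO, 45.4 and 50.2 in TSW and 44.7 and 37.5 in CO, with MONO highest. Its fold changes were -0.51 ± 0.09 (adjusted p = 0.000772, under the fold threshold) and -0.73 ± 0.09 (adjusted p = 5.25e-05, but -0.45 and not called with the loess correction).

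In the checkpoint and APC/C group, CDC20 had 106 and 105 RPKM in MONO, 41.7 and 44.9 in TSW and 31.1 and 29.5 in CO. No libraries of different conditions overlapped, and the log2 fold changes of -1.27 ± 0.07 and -1.77 ± 0.07 (SE, n = 2, adjusted p = 1.41e-07 and 1.15e-08) were the largest decreases of the members. BUB1 had 125 and 121 in MONO, 90.2 and 86 in TSW and 83 and 79 in CO, again in that order without overlap (-0.48 ± 0.07, adjusted p = 0.000109, under the fold threshold, and -0.60 ± 0.07, adjusted p = 1.63e-05, but not called with median-of-ratios scaling, quantile normalization or the loess correction, at -0.49, -0.53 and -0.55, or without MONO 1 or CO 2). PTTG1, securin, which holds separase inactive until anaphase, was singled out after its values were seen. It had 90.8 and 90.9 in MONO, 117 and 136 in TSW and 119 and 111 in CO, so MONO lay below both. The log2 fold change was 0.47 ± 0.08 and 0.34 ± 0.08 (SE, n = 2, adjusted p = 0.000418 and 0.00299), both under the fold threshold. PTTG1 has near-identical copies that can share its reads, and PTTG2 stood at 0.139 and 0.117 in MONO, 6.18 and 6.2 in TSW and 0.106 and 0.554 in CO, while PTTG3P stood at 1.84 and 1.66, 16 and 18.8, and 2.52 and 1.4. These copies were thus high in the TSW libraries in which RPS14P3 was high, and the level of PTTG1 is uncertain. The other 15 members with copies named after them in RefSeq, taken here as near-identical (CCNB2, AURKA, AURKB, NEK2, BUB1, BUB3, MAD2L1, CDC20, UBE2C, KIF4A, DLGAP5, RACGAP1, SMC4, NCAPG and MKI67) are uncertain for this reason too.

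Of the kinetochore genes, CENPF had 21.9 and 23.3 RPKM in MONO, 12.5 and 13.1 in TSW and 13.1 and 13.3 in CO. MONO lay above the 4 others, with log2 fold changes of -0.77 ± 0.08 and -0.73 ± 0.08 (SE, n = 2, adjusted p = 1.04e-05 and 1.14e-05). CENPA had 17.1 and 17.4 in MONO, 14.4 and 13.2 in TSW and 13.7 and 11.7 in CO. MONO was again highest, and -0.30 ± 0.09 and -0.41 ± 0.09 passed the adjusted p (0.0136 and 0.00217) but not the fold threshold. TPX2, among the spindle genes, had 108 and 106 in MONO, 75.1 and 81.3 in TSW and 72.2 and 60.4 in CO. Its conditions did not overlap, and the fold changes were -0.45 ± 0.09 (adjusted p = 0.00109, under the fold threshold) and -0.69 ± 0.09 (adjusted p = 4.52e-05, but not called with median-of-ratios, quantile or loess scaling, at -0.58, -0.58 and -0.55, or without CO 2). HMMR had 51.8 and 37.6 in MONO, 26.9 and 22.1 in TSW and 33.8 and 29.2 in CO, so CO lay between MONO and TSW. It was called lower in TSW (-0.83 ± 0.14, adjusted p = 0.000464), and in CO it passed without reaching the fold threshold (-0.48 ± 0.14, adjusted p = 0.012), which it reached without MONO 2 (-0.70) and with the loess correction (-0.59).

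For cytokinesis, ECT2 had 24.9 and 21.6 RPKM in MONO, 24 and 21.6 in TSW and 26.3 and 24.2 in CO, with overlap and differences of -0.03 ± 0.09 and 0.12 ± 0.09 (adjusted p = 0.788 and 0.279). RACGAP1 had 37.9 and 37.6 in MONO, 27.3 and 26.6 in TSW and 26.6 and 24.1 in CO. MONO lay above both, and -0.47 ± 0.07 and -0.56 ± 0.07 (SE, n = 2) passed the adjusted p (0.000269 and 6.58e-05) but not the fold threshold, which RACGAP1 reached in CO without CO 1 (-0.63). All 6 genes of chromosome structure were lower at an adjusted p under 0.05 in both comparisons, against 38.0% and 41.7% of tested genes. Of the 6, 3 were called in TSW and 2 in CO, against 17.9% and 22.9% of tested genes. NCAPH had 18.8 and 18.9 in MONO, 11.5 and 12.7 in TSW and 10.3 and 8.86 in CO, in that order without overlap. Its log2 fold change was -0.60 ± 0.09 and -0.91 ± 0.09 (SE, n = 2, adjusted p = 0.000219 and 8.34e-06), and the TSW call was lost with median-of-ratios scaling (-0.52), quantile normalization (-0.54), the loess correction (-0.57) or without TSW 1. TOP2A had 125 and 124 in MONO, 102 and 93.6 in TSW and 114 and 101 in CO, with MONO above both others, which overlapped (-0.35 ± 0.08 and -0.21 ± 0.08, adjusted p = 0.0024 and 0.0295, both under the fold threshold). MKI67 had 11.3 and 12.9 in MONO, 8.91 and 10 in TSW and 8.97 and 8.3 in CO, likewise with MONO highest (-0.32 ± 0.10 and -0.44 ± 0.10, adjusted p = 0.0143 and 0.00221, both under the fold threshold, which MKI67 reached in CO with the loess correction at -0.62).

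CO and TSW of RPMI8226 differed less. Between them limma called 0 of 44 members higher and 0 lower, against 1.90% and 2.39% of tested genes, and voom also called 0 and 0 (3.12% and 3.39%). Without the fold threshold 8 members were lower (18.2%, against 17.5% of tested genes) and 0 higher (10.1%), a share near that of all genes. The 8 were CCNB1, CCNB2, AURKB, BIRC5, CDC20, KIF2C, PRC1 and NCAPH, with CDC20 at -0.50 ± 0.07 (SE, n = 2, adjusted p = 0.000984), CCNB2 at -0.47 ± 0.06 (0.000874) and CCNB1 at -0.35 ± 0.07 (0.00664). At an unadjusted p under 0.05 there were 13 lower and 3 higher, against 24.4% and 16% of tested genes. The median difference was -0.08, against -0.04 over all tested genes, and moved to -0.17 without CO 1 and to -0.01 without CO 2. In 15 of the 45 genes both CO libraries lay below both TSW libraries and in 7 above, against 38.0% and 27.3% of tested genes.

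The lines were compared by the difference of their fold changes, RPMI8226 minus MM.1S, in a limma fit of all 15 libraries on 9397 genes tested in both. For TSW against MONO the fold change was smaller in RPMI8226 for 34 of 44 members, against 23.4% of tested genes at an adjusted p under 0.05, and greater for 0, against 15.1%. AURKA is an example, with 0.58 in MM.1S and -0.66 in RPMI8226, and HMMR another, with 0.53 and -0.83. CO against MONO gave 38 smaller and 0 greater, against 28.5% and 15.9% of tested genes. At an unadjusted p under 0.05 these counts were 36 and 0 (29% and 18.3% of tested genes), and 39 and 0 (33% and 18.6%), and voom gave 33 and 38 smaller (23.9% and 28.9%). The median difference was -0.72 and -0.84. CDC20 had the largest difference in CO, -1.75, with -0.02 in MM.1S and -1.77 in RPMI8226. Not passing in either comparison were CKS2, PTTG1, CENPE, KIF4A, SMC4 and MKI67, and in TSW also CCNB2, KIF2C, KIF20A and PRC1. Without MM.1S MONO 1 and 2 the counts were 26 and 33, and in TSW 22 members were smaller without RPMI8226 MONO 1 and also 22 without RPMI8226 TSW 2. For CO against TSW 0 members differed by limma in either direction (0.0958% and 0.0426% of tested genes), with 3 smaller and 0 greater at an unadjusted p under 0.05 (6.61% and 3.03%) and 0 by voom (0.0745% and 0.0426%).

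Of the 44 members, 34 were above 0 in MM.1S and below 0 in RPMI8226 in TSW, and 33 in CO, against 22.8% and 20.7% of the 9397 genes. In MM.1S, 40 and 38 of all 45 members were above 0, but 21 and 31 without MONO 1 and 2. At an adjusted p under 0.05 in each line, 6 were higher in MM.1S and lower in RPMI8226 in TSW (AURKA, NEK2, BUB1, CENPA, TPX2 and HMMR), and 11 in CO, where TTK, KIF2C, NUSAP1, DLGAP5 and TOP2A joined them, against 1.73% and 2.01% of the genes. Without MM.1S MONO 1 and 2, a choice made after seeing the data, 4 members in TSW and 7 in CO were higher in MM.1S at this threshold (12.3% and 11.3% of tested genes) and 1 in each lower (9.75% and 9.29%), in place of 10 and 15 higher and 0 lower, and 0 were called with the fold threshold. Across the 44 members, which are not independent replicates and share the libraries of each line, fold changes of the lines had a Pearson r of 0.37 (Spearman 0.31) for TSW and 0.39 (0.36) for CO.

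**Figure D4:**
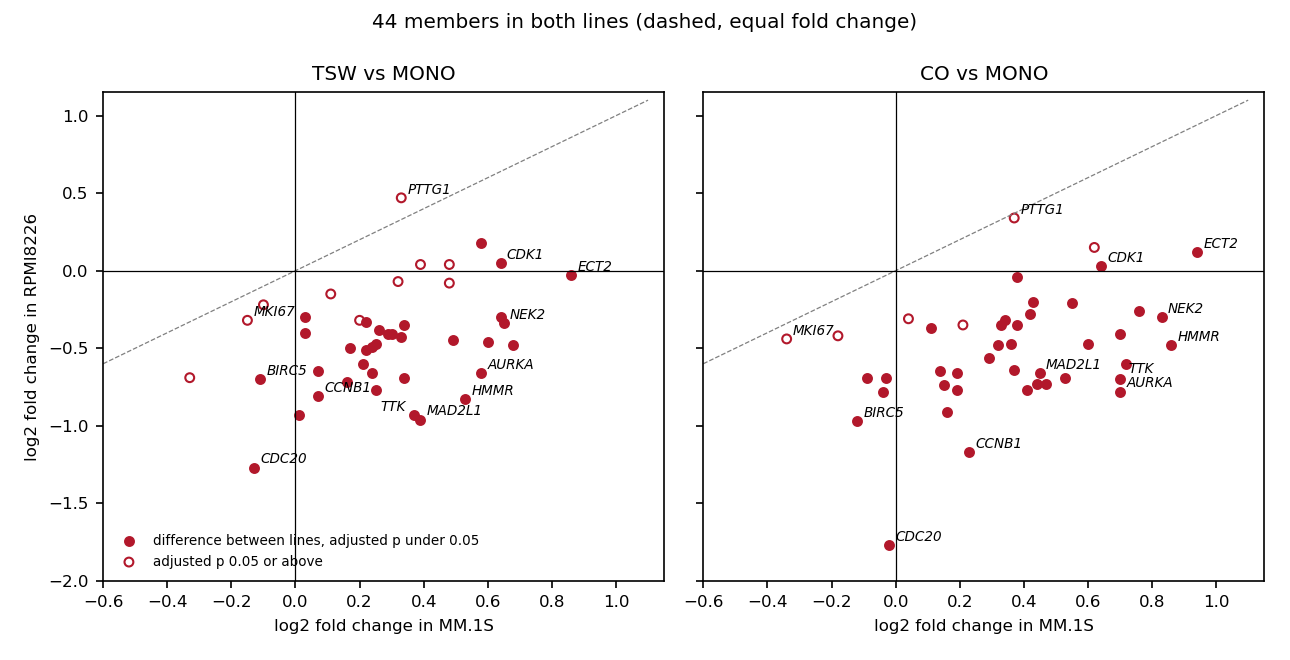
Log2 fold changes of RPKM + 1 of 44 members in MM.1S (horizontal) and RPMI8226 (vertical), for TSW and CO against MONO, filled where the difference between lines had an adjusted p under 0.05 and with a dashed line of equal change. Filled are 34 and 38 members, all under the dashed line, and PTTG1 lies highest in RPMI8226 at 0.47 and 0.34.

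Beyond the 45 genes, 93 other mitosis genes were counted. In MM.1S, where 92 were tested, 2 were called higher and 1 lower in TSW (6.48% and 4.16% of all tested genes) and 5 and 3 in CO (7.13% and 4.65%) against MONO, with medians of 0.09 and 0.11, while CO against TSW gave 0 and 0. DEPDC1 (0.71 in TSW, 1.07 in CO), the APC/C subunit CDC27 (0.59, 0.79) and the kinesin KIF14 (0.75 in CO) were among those called higher, and the APC/C subunit ANAPC2 (-0.64, -0.69), the phosphatase CDC25A (-0.63 in CO) and CENPM (-0.62 in CO) lower. Without MM.1S MONO 1 and 2 none of these 6 was called (DEPDC1 0.22 and 0.58, CDC27 0.12 and 0.33, KIF14 0.13 in CO, ANAPC2 -0.25 and -0.31, CENPM -0.36 in CO, and CDC25A -0.51 in CO), although in CO DEPDC1 and CDC25A kept an adjusted p under 0.05 (0.0157 and 0.0208) and missed only the fold threshold. The list then gave 1 higher and 0 lower in TSW (5.65% and 3.71% of all tested genes) and 0 and 1 in CO (5.36% and 3.37%), and its medians were -0.04 and -0.04. In RPMI8226 42 of 93 were called lower and 2 higher in TSW (17.9% and 14.5% of all tested genes), and 46 and 1 in CO (22.9% and 16.4%), with medians of -0.56 and -0.57. TRIP13, a checkpoint ATPase, fell from 93.4 and 88.5 RPKM in MONO to 18.4 and 18.8 in TSW and 12.6 and 11.7 in CO (-2.23 ± 0.07 and -2.81 ± 0.07, adjusted p = 4.34e-09 and 7.98e-10). SKA3 (-1.71 in TSW), CDC25A (-1.64, -2.23) and ZWINT (-1.82 in CO) followed, and PIMREG (0.78, 0.64) and ANAPC11 (0.73 in TSW) were called higher. CO against TSW gave 4 lower and 2 higher there (2.39% and 1.90% of all tested genes), with ANAPC11 at -0.73, CENPW at -0.69 and PKMYT1 at -0.61, and DEPDC1 at 0.62 and CDC27 at 0.59.

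Among 19 regulators of cell cycle transcription, MM.1S had 1 call against MONO, E2F1, lower in CO, beside 4.65% of all tested genes. E2F1, an activator of S phase genes, had 49.7, 39.6 and 30.3 RPKM in MONO and 21, 25.3 and 22.6 in CO (-0.75 ± 0.15, SE, n = 3, adjusted p = 0.00423). Without MONO 1 and 2 the change of E2F1 in CO was -0.39, under the fold threshold. MYBL2, the activator that acts with FOXM1 on members, was not called in any comparison, with -0.33 (adjusted p = 0.00255) in RPMI8226 CO as its largest change from MONO. In RPMI8226 TSW the E2F partner TFDP1 (-1.18), the pocket protein RBL1 (-0.77), RBBP4 (-0.72) and LIN9 (-0.62) were called lower, and RB1 (0.83) and LIN37 (0.88) higher, which is 4 and 2 of 19 beside the 17.9% and 14.5% of all tested genes given above. CO gave TFDP1 (-1.36), E2F1 (-1.13), E2F2 (-0.88), RBL1 (-0.80), E2F4 (-0.78), LIN9 (-0.73) and E2F8 (-0.64) lower, and RB1 (1.23) and RBL2 (0.74) higher, 7 and 2 of 19 beside 22.9% and 16.4%. Neither line had a call between CO and TSW.

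DNA replication genes, which precede the members in the cycle, were compared as 45 genes of their own. In MM.1S 4 were called lower in TSW and 8 in CO against MONO (4.16% and 4.65% of all tested genes), with 0 higher (6.48% and 7.13%), and the medians of -0.25 and -0.38 lie opposite to those of the members, 0.26 and 0.37. UHRF1 (-1.12, -1.13), CLSPN (-0.80, -0.79), MCM4 (-0.63 in TSW) and MCM5 (-0.73 in CO) were among them. Without MONO 1 and 2, 3 and 5 replication genes were called lower (3.71% and 3.37% of all tested genes), UHRF1 (-1.05, -1.06) and CLSPN (-0.64, -0.63) among them, and the medians were -0.19 and -0.32. In that fit the members had medians of -0.02 and 0.06, with 21 and 31 of 45 above 0, against 11 and 6 of 45 replication genes. In RPMI8226 35 were called lower in TSW and 41 in CO (17.9% and 22.9% of all tested genes), with 0 higher (14.5% and 16.4%) and medians of -0.88 and -1.26, beside -0.44 and -0.48 for the members. UHRF1 (-2.32, -2.54) and GINS2 (-1.81, -2.69) were among them, and 9 genes with GINS2 (-0.88), MCM2 (-0.87) and CDC6 (-0.66) were called lower in CO than in TSW and 0 higher (2.39% and 1.90% of all tested genes). The median level of these genes per library was 4.94, 5.05 and 4.88 in MM.1S MONO and 4.47 to 4.69 in TSW and CO, so that here all 3 MONO libraries lay above the 6 others, unlike for the members. No test of the difference between the lists was made. Of the markers, 13 of 15 tested stromal genes were called higher in MM.1S CO than in MONO and 11 of 13 in RPMI8226. These shares stand beside 7.13% and 16.4% of all tested genes, and FN1 was called lower in RPMI8226 (-0.99). Of the 30 listed stromal genes, those at 0 in MONO and TSW, such as MMP1 and COL1A2, passed the expression filter through CO alone. Their calls were therefore largely set by the filter. Of plasma cell genes, 2 of 9 were called higher in MM.1S CO and 5 of 8 in RPMI8226 CO. In each line 2 were called lower (4.65% and 22.9% of all tested genes), TNFRSF17 (-2.14, -3.83) among them. Without MM.1S MONO 1 and 2 the stromal count was also 13, and 1 plasma cell gene was called higher and 2 lower.

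**Figure D5:**
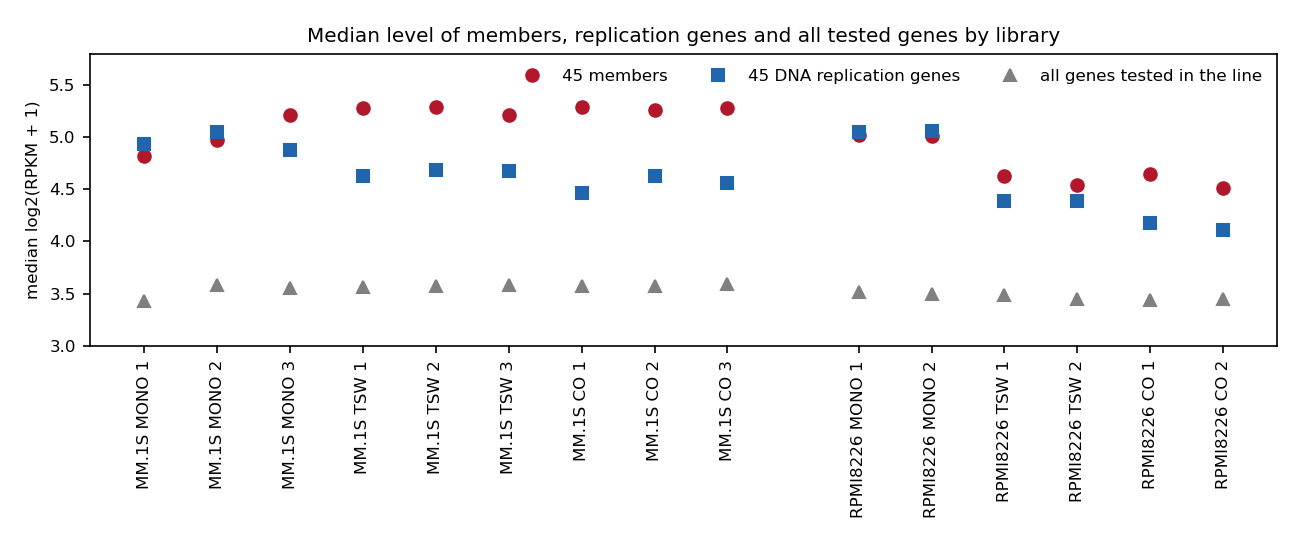
Median log2(RPKM + 1) of the 45 members, 45 DNA replication genes and all genes tested in the line, for each of the 15 libraries. The members lie at 4.82 to 5.29 in MM.1S and fall from 5.02 and 5.01 in RPMI8226 MONO to 4.51 to 4.65, while all tested genes stay between 3.43 and 3.59.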

How the data were processed

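RNA-Seq values of 15 libraries were used, and conditions and replicates were taken from the labels and the column names. The authors sequenced KAPA mRNA HyperPrep libraries, aligned and counted reads with Subread and featureCounts on RefSeq genes of hg38 and deposited log2 values, which are log2(RPKM + 1) with 0.0001 added. The design written beforehand had assumed RPKM; the values were therefore tested on the log2(RPKM + 1) scale after subtraction of 0.0001. The spacing of the values gave whole reads for 100.0% of 218078 values above 0 (tolerance 0.05), and these reads gave the depth and the input of voom. A floor of 3 reads on a gene of 2 kb would be an RPKM of 0.0787 to 0.167, for counting error only. limma 3.58.1 in R 4.3.3 was run with lmFit, contrasts.fit and eBayes with trend, without covariates, and was tested on simulated data. Differences between lines were an interaction contrast. Tables were handled with pandas 2.3.3 and numpy 2.4.6 under Python 3.11.15, figures with matplotlib 3.10.9. RefSeq promoters were searched by letters. Members and lists were chosen with earlier results of these data known. Values per library are given for CCNB1, CDK1, PLK1, AURKA, FOXM1, MKI67, TOP2A and CDC20 and, in each role and line, for the member with the largest moderated statistic; of other mitosis genes up to 3 called genes with the largest increase and decrease, every called regulator, and up to 3 called replication genes and markers are named. Alternatives changed the scale (pseudocount 0.1; scaling by median of ratios; quantiles made equal; loess on GC content and length, alone or with the replicate block), the genes tested (all, or those with a mean of 5 RPKM or more) or the test (replicate block; a fit of the compared pair of conditions; eBayes without trend; no fold threshold; voom), or left out each library. Added after seeing the data were the omission of MM.1S MONO 1 and 2, for members and other lists, and of members with near-identical copies. Genes with a mean RPKM under 1 were left out of tests, and other data of the study were not analysed here. A replication gene that the naming rule selects is not reported.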

Additional observations from a re-analysis of the deposited data

Results flagged for a closer look

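The fold changes of the members against MONO differed between the lines, tested as RPMI8226 minus MM.1S by limma on log2(RPKM + 1) at an adjusted p under 0.05. The values are differences of log2 fold changes, and no explanation of them was tested.

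In TSW, the genes of entry into mitosis that differed were CCNA2 (-0.72), CCNB1 (-0.89), CDK1 (-0.59), CDC25C (-0.40) and FOXM1 (-0.44). For the mitotic kinases and passenger genes in TSW the differences were PLK1 (-0.73), AURKA (-1.23), AURKB (-0.64), NEK2 (-0.99) and BIRC5 (-0.59). Next come the checkpoint and APC/C genes in TSW, BUB1 (-1.15), BUB1B (-0.73), BUB3 (-0.33), MAD2L1 (-1.36), TTK (-1.30) and CDC20 (-1.13). Also in TSW, centromere and kinetochore genes gave CENPA (-0.94), CENPF (-1.02), NDC80 (-0.67), NUF2 (-0.70) and SPC25 (-0.95). The spindle genes in TSW gave KIF11 (-0.90), TPX2 (-0.94), NUSAP1 (-0.71), HMMR (-1.37) and DLGAP5 (-0.55). Values of the cytokinesis genes in TSW were KIF23 (-1.04), ANLN (-1.07), ECT2 (-0.89) and RACGAP1 (-0.72). Finally in TSW, genes of chromosome structure gave TOP2A (-0.69), SMC2 (-0.88), NCAPG (-0.76) and NCAPH (-0.81).

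In CO, the genes of entry into mitosis that differed were CCNA2 (-0.85), CCNB1 (-1.39), CCNB2 (-0.60), CDK1 (-0.61), CDC25C (-0.43) and FOXM1 (-0.65). For the mitotic kinases and passenger genes in CO the differences were PLK1 (-1.19), AURKA (-1.48), AURKB (-0.89), NEK2 (-1.13) and BIRC5 (-0.84). Next come the checkpoint and APC/C genes in CO, BUB1 (-1.32), BUB1B (-1.02), BUB3 (-0.47), MAD2L1 (-1.12), TTK (-1.40) and CDC20 (-1.75). Also in CO, centromere and kinetochore genes gave CENPA (-1.11), CENPF (-1.17), NDC80 (-0.79), NUF2 (-0.63) and SPC25 (-0.74). The spindle genes in CO gave KIF11 (-0.81), KIF2C (-0.70), TPX2 (-1.22), NUSAP1 (-0.83), HMMR (-1.34) and DLGAP5 (-0.73). Values of the cytokinesis genes in CO were KIF20A (-1.02), KIF23 (-1.18), PRC1 (-0.66), ANLN (-1.08), ECT2 (-0.83) and RACGAP1 (-0.85). Finally in CO, genes of chromosome structure gave TOP2A (-0.76), SMC2 (-0.97), NCAPG (-0.68) and NCAPH (-1.07). The count of 34 in TSW and 38 in CO rests on all libraries, and without MM.1S MONO 1 and 2 it was 26 and 33.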

How the results depend on the processing

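Of 2040 fold changes of 17 named members under alternatives, 1945 kept direction and side of the thresholds, 50 were no longer called, 45 became called and 0 changed sign as calls. Without the fold threshold, 10 (TSW) and 15 (CO) members were higher than MONO in MM.1S, and in RPMI8226 35 and 38 were lower and 1 and 1 higher, and 8 were lower in CO than in TSW. Without MM.1S MONO 1 and 2, the MONO libraries with the lowest member levels, the medians were -0.02 and 0.06, a drop that follows in part from that choice. Without the 16 members with near-identical copies, 3 and 5 of 29 were called higher in MM.1S. Both omissions were chosen after seeing the data. In RPMI8226 TSW the median was -0.36 with median-of-ratios scaling, -0.39 with quantile normalization and -0.36 with the loess correction, with or without replicate block, which also gave 1 member called higher in TSW and 1 in CO. Members called lower in RPMI8226 CO were 12 with median-of-ratios scaling (median -0.38), 13 with quantile normalization and 12 with the loess correction, 9 of them among the 20, and also 12 with it and replicate block. With each library left out in turn, members called higher ranged from 2 to 13 (median 0.14 to 0.41) in MM.1S TSW and from 6 to 15 (0.20 to 0.49) in MM.1S CO. Members called lower ranged from 12 to 17 (-0.47 to -0.42) in RPMI8226 TSW and from 13 to 23 (-0.60 to -0.40) in CO, the median of CO against TSW from -0.17 to -0.01, and members with a smaller fold change in RPMI8226 from 22 to 38 in TSW and from 29 to 39 in CO. Shares of all tested genes are not given beside these left-out counts, and the causes were not tested. No source says what replicate numbers mark; deviations of same-numbered libraries correlated between -0.380 and 0.286 in MM.1S, with the own number best in 7 of 18 cases, and between 0.164 and 0.271 in RPMI8226, in 12 of 12. With 2 replicates these 12 come from 3 values, a hint from the data and not from the design, and the numbers were not taken as pairs. With the replicate block alone 5 and 9 members were called higher in MM.1S and 15 and 20 lower in RPMI8226, and 32 and 37 differed between lines. Over all tested genes of RPMI8226, the share of calls that were higher was 44.7% in TSW against MONO, 41.7% in CO against MONO and 44.2% in CO against TSW, but 52.6%, 50.9% and 53.8% with median-of-ratios scaling, 48.5%, 47.8% and 59.0% after quantile normalization and 53.9%, 51.6% and 64.8% under the loess correction, so the excess of lower calls over all genes depends on scaling. UBE2C had 3 to 32 reads in RPMI8226 libraries and 590 to 1595 in those of MM.1S.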

Other observations

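UBE2C, a member at 52 to 82.6 RPKM in MM.1S, had 0.446 and 0.322 RPKM in RPMI8226 MONO, 0.214 and 0.133 in TSW and 0.389 and 1.35 in CO, while CDC20, which acts with it on APC/C, had 29.5 to 106 in RPMI8226. RefSeq names 5 pseudogenes after UBE2C, and how reads were shared among them was not tested. Of the 44 members 5 in TSW and 7 in CO were below 0 against MONO in both lines, CCNB2, BIRC5, CDC20, MKI67 and SMC4 in both comparisons and FOXM1 and SPC25 in CO, which is 11.4% and 15.9% of the members against 33.4% and 36.2% of 9397 genes. MKI67 and SMC4 are those whose differences between the lines passed in neither comparison (MKI67 -0.15 and -0.34 in MM.1S and -0.32 and -0.44 in RPMI8226, SMC4 -0.33 and -0.18 and -0.69 and -0.42), and only the values of RPMI8226 passed an adjusted p under 0.05. Both were chosen after their values were seen.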
